A study of Mus musculus with 6 samples.

Results

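The 31 genes described here encode enzymes of the mevalonate and sterol pathway, proteins that take up or move sterols, and the proteins that set the activity of the SREBP transcription factors. They were chosen by name as rows of a table of 23282 genes, and all 31 passed the filter on low counts that left 16586 genes for testing. Counts came from the colon of 8-week-old wild-type C57BL/6J mice. The 3 PCN libraries, replicates 4, 5 and 6, were from mice injected intraperitoneally with pregnenolone 16α-carbonitrile, a steroid that activates the xenobiotic receptor PXR in rodents, at 40 mg/kg, 3 times at intervals of 8 h. The 3 vehicle libraries, replicates 3, 5 and 6, were from mice labelled as controls and are named for the vehicle, DMSO in corn oil, in which PCN was given. Colon was taken 8 h after the last injection, and the whole tissue was used, with its muscle, stroma and immune cells. No source used here says whether each library came from its own animal, so p-values measure the spread between libraries.

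Cholesterol is built from acetyl-CoA through mevalonate, isoprenoid diphosphates, squalene and lanosterol. When sterols in the endoplasmic reticulum are scarce, Scap carries SREBP proteins to the Golgi, where they are cut and freed to enter the nucleus. SREBP2 then acts mainly on genes of cholesterol synthesis and uptake, and SREBP1 mainly on genes of fatty acid synthesis. When sterols are plentiful, Insig1 and Insig2 hold Scap back.

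Nuclear SREBP binds the sterol regulatory element (SRE) together with general factors such as NF-Y, which recognises the CCAAT box. The 250 bases before each RefSeq start (build GRCm38.p6) were searched on both strands for these letters. Of the 31 genes, 25 were matched in the RefSeq table. Sqle, Fdps, Fdft1, Npc1, Stard4 and Soat2 had no match and were not searched. CCAAT was found before at least 1 start of 23 of these 25 genes, against 37.5% of all 27025 genes in that table and 39.6% of those that were also tested here. GGGCGG, the GC box, was found in 21 of 25, against 35.4% of all genes and 59.9% of tested genes. TCACNCCAC, an SRE form, was found in 1 of 25, Hmgcs1, and in 1.22% of all genes. The longer canonical SRE, which contains the former, the inverted E-box that SREBP can also bind, and direct repeats of AGGTCA or AGTTCA spaced by 4 bases were found in 0 of the 25, and in 0.226%, 0.0777% and 0.0259% of all genes. The PXR element that the paper reports in the B3galt5 promoter lies farther upstream than this window, and its second repeat differs from the searched letters. A search of this kind would therefore miss it. These are matches of letters only, and binding was not measured.

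4 upstream stretches that hold no annotated exon are shown. They set Hmgcs1, the only searched synthesis gene with an SRE form, beside a gene without it. They also show the genes that led the comparison in each direction. Capitals mark CCAAT or its complement ATTGG and, in Hmgcs1, also TCACCCCAC. Hmgcs1, on the plus strand at chr13:119690101-119690350, holds the SRE form 137 to 129 bases before the start and 3 CCAAT boxes. Mvd, a synthesis enzyme with no SRE form in this window, lies on the minus strand at chr8:122443423-122443672 and has 2 CCAAT boxes, 60 to 56 and 27 to 23 bases before its start. The other two are Srebf1 and Npc1l1, the genes with the smallest p among those higher and lower with PCN. For Srebf1 the third listed start is shown (minus strand, chr11:60210472-60210721), and Npc1l1 lies on the minus strand at chr11:6230246-6230495.
Hmgcs1: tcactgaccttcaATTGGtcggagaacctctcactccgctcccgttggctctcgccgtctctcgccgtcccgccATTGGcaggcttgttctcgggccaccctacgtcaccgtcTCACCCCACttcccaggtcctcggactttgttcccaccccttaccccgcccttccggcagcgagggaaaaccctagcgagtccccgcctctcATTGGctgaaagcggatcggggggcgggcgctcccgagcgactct
Mvd: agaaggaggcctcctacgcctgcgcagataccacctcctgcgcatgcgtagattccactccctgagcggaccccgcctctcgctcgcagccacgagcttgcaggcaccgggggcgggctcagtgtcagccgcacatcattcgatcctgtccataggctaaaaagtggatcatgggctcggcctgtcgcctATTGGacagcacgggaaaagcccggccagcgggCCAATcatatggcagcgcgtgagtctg
Srebf1: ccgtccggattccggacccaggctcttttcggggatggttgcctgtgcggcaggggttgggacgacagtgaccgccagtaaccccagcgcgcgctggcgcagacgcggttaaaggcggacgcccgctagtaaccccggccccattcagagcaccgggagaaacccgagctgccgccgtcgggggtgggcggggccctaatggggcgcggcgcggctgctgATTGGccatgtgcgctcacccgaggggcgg
Npc1l1: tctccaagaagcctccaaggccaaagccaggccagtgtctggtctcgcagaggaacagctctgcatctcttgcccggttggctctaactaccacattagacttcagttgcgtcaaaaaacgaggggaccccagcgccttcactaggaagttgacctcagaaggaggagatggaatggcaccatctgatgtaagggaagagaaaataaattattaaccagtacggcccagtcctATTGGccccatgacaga

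Total counts were 21924026 to 25422856 per library, and the lowest count of any of the 31 genes in a library was 27. CPM here are counts scaled to a common library size by TMM. B3galt5, the gene that the study follows, was 381 to 565 CPM with vehicle and 1283 to 1426 CPM with PCN (edgeR, adjusted p = 0.0262). Cyp2c55, which the paper names as a known PXR target, was 1070 to 2334 and 3634 to 5017 CPM (adjusted p = 0.188 in edgeR and 6.79e-06 in DESeq2). Akr1b7, which the paper's text does not name, was 1.76 to 2.36 and 7.93 to 11.2 CPM (edgeR, adjusted p = 0.0460). Epithelial markers of the colon were abundant, with 14066 to 25743 CPM of Muc2, while Alb, the albumin gene of hepatocytes, reached at most 2.43 CPM. Of the other hepatocyte markers listed, Cps1 had 5.10 to 12.4 CPM, Ahsg at most 0.659 CPM and Serpina1a at most 0.196 CPM. In bulk tissue, fewer cells of a type and less RNA per cell cannot be told apart. Over all genes tested, the median log2 fold change was 0.0085. At an adjusted p under 0.05, edgeR called 0.0362% of the genes, 0.0301% as higher and 0.00603% as lower with PCN.

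All 19 synthesis genes were expressed. Compared per length, as the authors' FPKM (fragments scaled to gene length and library size), the most abundant of the 31 genes by the mean of all 6 libraries was Srebf2, which encodes SREBP2, at 29.7 ± 4.38 with vehicle and 34.3 ± 4.22 with PCN (SD, n = 3 per group, here and below). It was followed by Stard4, a cytosolic sterol carrier (32.2 ± 4.88 and 30.2 ± 4.52), and Npc2, which binds cholesterol in the lysosome (30.5 ± 1.91 and 26.8 ± 0.466). Next came Hmgcs1, HMG-CoA synthase, at 24.8 ± 4.44 and 30.0 ± 10.2, and Insig1, at 28.2 ± 13.4 and 24.8 ± 2.23. With vehicle, the ranges of mean ± SD of these 5 genes overlapped one another. With PCN, that of Srebf2 lay above those of Npc2 and Insig1. The lowest were Npc1l1, the apical transporter that takes up dietary sterol in the small intestine, at 0.561 ± 0.102 and 0.322 ± 0.0774, and Soat2, an enzyme that esterifies cholesterol in enterocytes, at 2.64 ± 0.813 and 2.39 ± 1.03. By this measure Lss, which closes the sterol rings to make lanosterol, was the lowest synthesis enzyme at 4.28 ± 1.94 and 4.34 ± 0.709. That was within its spread of Hsd17b7, a ketosteroid reductase of the pathway. FPKM depend on the gene length used, and the annotated exons of Lss cover 10787 bases. In CPM, which are not scaled to length, Lss had 45.5 ± 21.2 with vehicle and 47.6 ± 7.99 with PCN. Mvk, of the early mevalonate steps, was lower at 18.9 ± 2.77 and 19.6 ± 4.84 CPM.

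**Figure D1:**
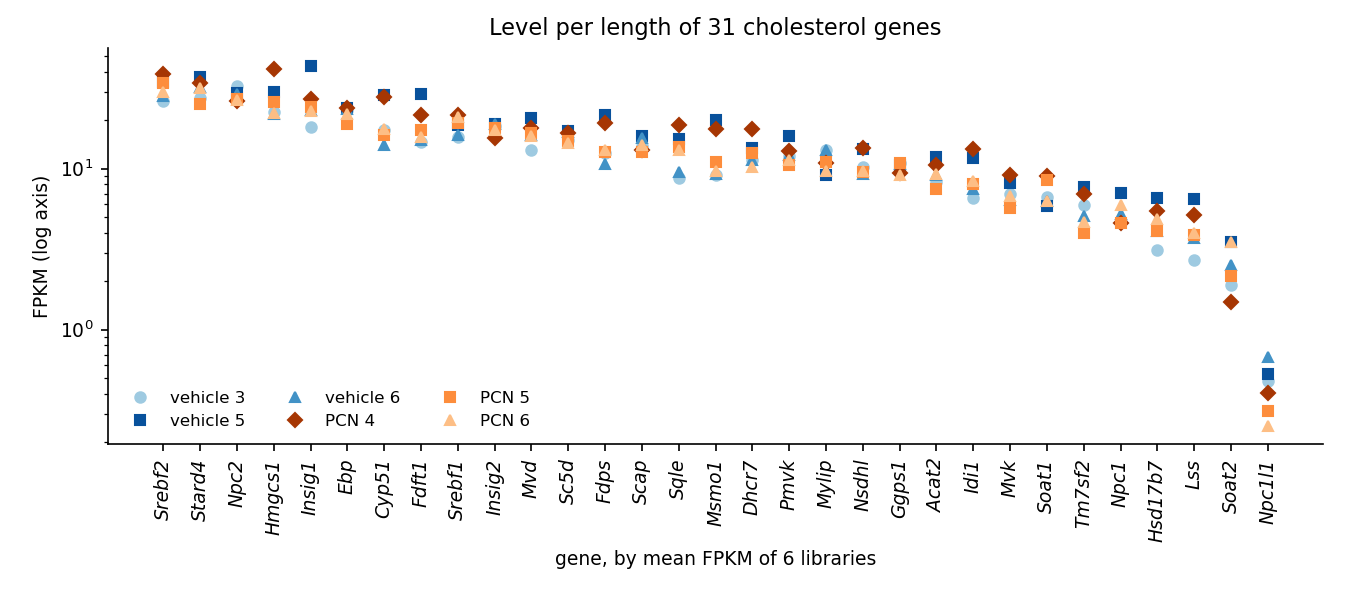
FPKM of each of the 31 genes in each of the 6 libraries, on a log axis, with genes ordered by their mean; blue symbols are vehicle and orange or brown symbols PCN libraries. Npc1l1 lies apart at the bottom, and vehicle 5 and PCN 4 (squares in dark blue, diamonds in brown) lie above the other libraries for most synthesis enzymes.

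None of the 31 genes passed edgeR's test between PCN and vehicle after adjustment over all genes (adjusted p from 0.378 to 0.986), a test that called 0.0362% of all genes. None passed DESeq2's test, which called 1.53% of the genes for which it gave an adjusted p, or that of limma voom, which called 0.0241%. At an unadjusted p under 0.05, edgeR placed 2 genes higher, Srebf1 and Soat1, and 1 lower, Npc1l1. Over all genes tested, 6.25% were higher and 3.73% lower at that level, so that the 3 of 31 were near the background of 9.98%. Of the 31 genes, 15 fitted values were above zero and 16 below, and the median log2 fold change was -0.043. For 29 of the 31, the 95% confidence interval lay within 1 of zero on the log2 scale. The exceptions were Sqle, whose interval reached 1.01, and Npc1l1, whose interval reached -1.46.

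**Figure D2:**
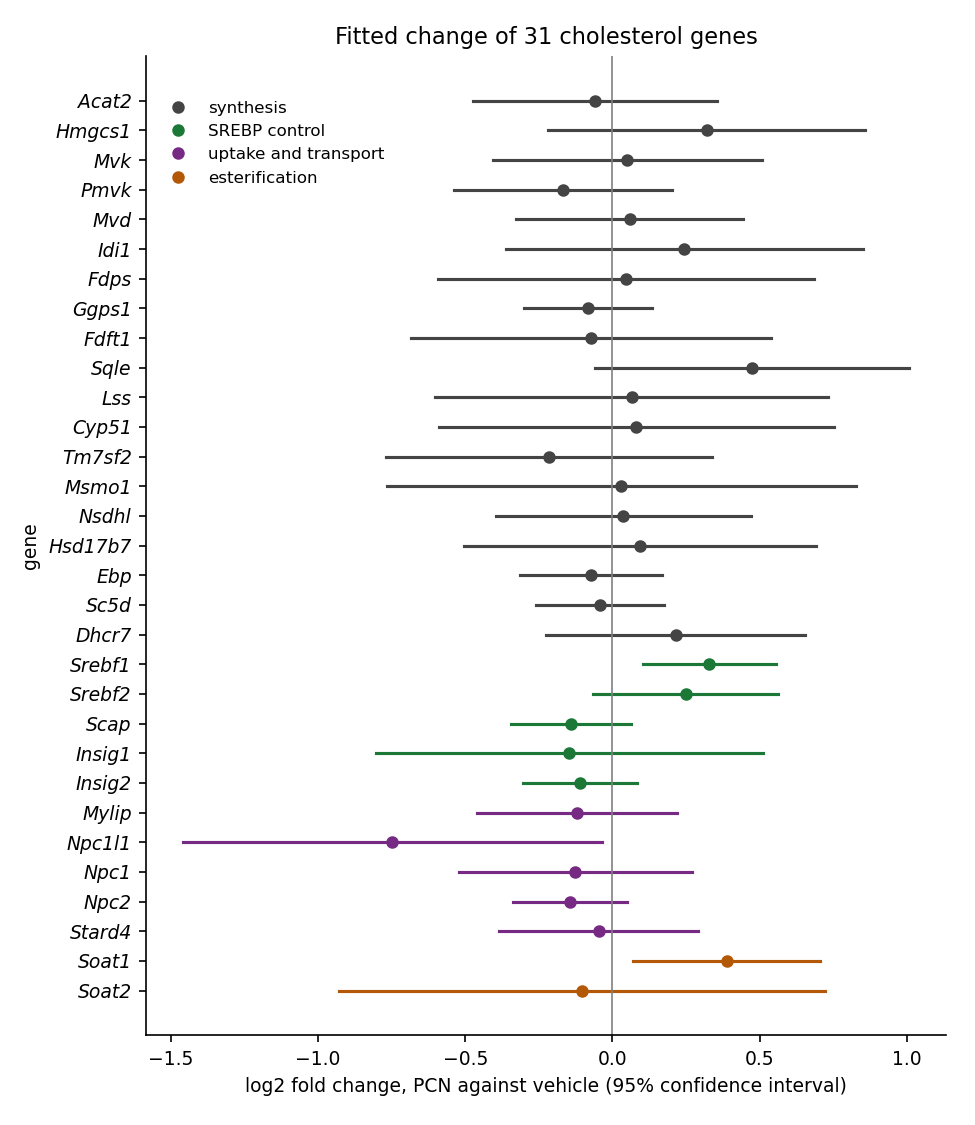
Fitted log2 fold change of PCN against vehicle (points) with its 95% confidence interval (lines) from edgeR, for 31 genes coloured by role. The intervals of Srebf1 and Soat1 lie above zero and that of Npc1l1 below it, before any adjustment, and all others cross zero.

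For most synthesis enzymes, the libraries of a group lay farther apart than the groups. Msmo1, an oxidase of methyl groups on the sterol ring, had 55.6, 124 and 54.9 CPM in vehicle replicates 3, 5 and 6 and 111, 68.0 and 60.5 CPM in PCN replicates 4, 5 and 6. One library of each group, vehicle 5 and PCN 4, was high, and the groups overlapped. Its log2 fold change was 0.03 ± 0.35 (SE, interval -0.77 to 0.83). Fdft1, squalene synthase, had 60.4, 120.0 and 60.0 CPM with vehicle and 90.1, 72.3 and 66.2 CPM with PCN. Lss had 29.0, 69.4 and 38.2 CPM with vehicle and 56.8, 42.1 and 44.0 CPM with PCN. In both genes the same libraries stood highest in their groups. Cyp51, the demethylase of lanosterol, followed with 77.0, 126 and 60.0 CPM against 126, 72.8 and 79.7 CPM.

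Vehicle 5 was the highest vehicle library and PCN 4 the highest PCN library in 18 of the 19 synthesis genes. Over all genes tested, this combination was found in 10.9%. These 2 libraries were singled out after the values were seen, and no test was made of the pattern. The exception was Ggps1, which makes the geranylgeranyl diphosphate used for protein prenylation rather than for sterols: it had 51.0, 49.4 and 48.7 CPM with vehicle and 45.3, 51.6 and 44.0 CPM with PCN. Relative to the mean of the other libraries in its group, vehicle 5 held 1.43 times the CPM and PCN 4 held 1.40 times, as medians over the 19 genes. The same medians over all genes were 0.985 and 1.00. In vehicle 5 the ratio was highest for Msmo1 (2.24), Insig1 (2.15) and Lss (2.06). In PCN 4 it was highest for Hmgcs1 (1.73), Msmo1 (1.73) and Cyp51 (1.65). The median SD between libraries of a group was 0.38 on the log2 scale for the 19 genes and 0.21 for all genes tested. It was lowest for Ggps1 (0.090), Sc5d (0.11) and Ebp (0.12), and highest for Msmo1 (0.58). Sc5d and Ebp, a desaturase and an isomerase of late sterol synthesis, thus varied little, at 71.2 to 83.1 CPM and 44.5 to 56.5 CPM over the 6 libraries.

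**Figure D3:**
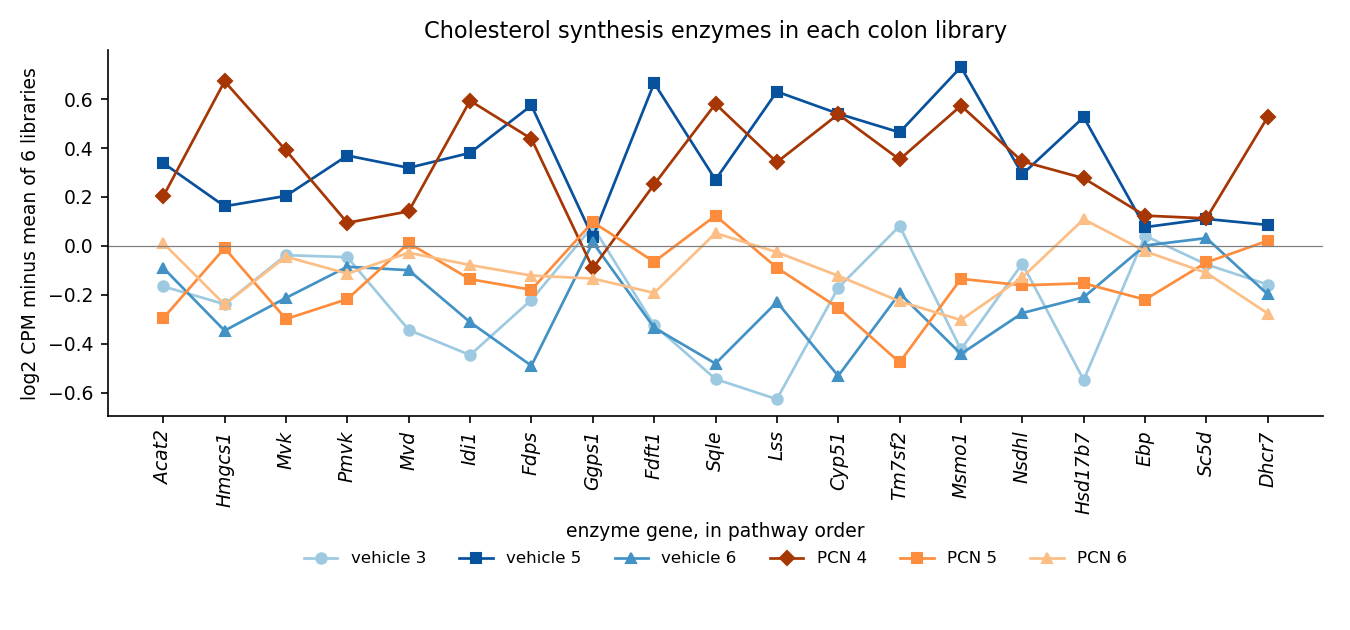
Log2 CPM of the 19 synthesis genes in each library, minus the gene's mean over 6 libraries, in pathway order from Acat2 to Dhcr7; each line is a library. The lines of vehicle 5 (dark blue) and PCN 4 (brown) run above the other 4 at nearly every step, with Ggps1 as the exception in both groups.

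**Figure D4:**
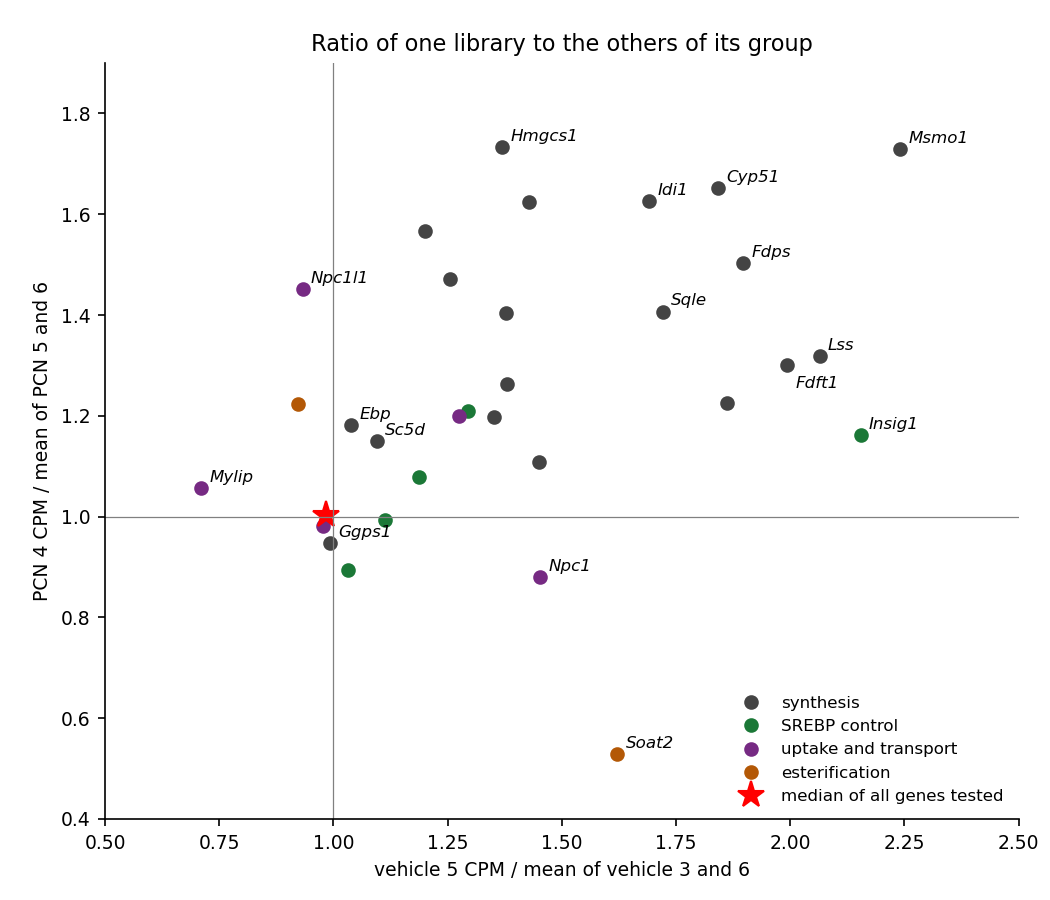
For each of the 31 genes, the CPM of vehicle 5 divided by the mean of vehicle 3 and 6 (x axis) and the CPM of PCN 4 divided by the mean of PCN 5 and 6 (y axis); a star marks the medians of all genes tested, 0.985 and 1.00. All synthesis genes except Ggps1 lie above 1 on both axes.

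The direction fitted for the enzymes depended on the library left out. With all 6 libraries, 12 of the 19 synthesis genes had a fitted value above zero and the median log2 fold change was 0.046. Without vehicle 5, 15 were positive and the median was 0.31. Without PCN 4, 16 were negative and the median was -0.15. It was also below zero without vehicle 3 (-0.072) or vehicle 6 (-0.085). Without vehicle 5, 8 of the 31 genes had an unadjusted p under 0.05 (9.75% of all genes), of which 7 were higher with PCN: Sqle, Srebf1, Srebf2, Lss, Insig1, Hsd17b7 and Fdft1. Mylip was lower. None of these 8 had an adjusted p under 0.05 from edgeR there, and the lowest was 0.270 for Srebf1. Without PCN 4, 2 of the 31 genes had an unadjusted p under 0.05 (7% of all genes), and without vehicle 6, 1 of 31 (6.45%). The groups did not overlap for 4 of the 31 genes with all libraries (16.1% of all genes), for 15 without vehicle 5 (27.6%), for 7 without PCN 4 (24%) and for 4 without vehicle 6 (22.6%).

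Sqle, squalene epoxidase, which adds oxygen to squalene, had the largest fitted value among the synthesis genes. It had 48.4, 85.2 and 50.6 CPM in vehicle replicates 3, 5 and 6 and 106, 76.9 and 73.2 CPM in PCN replicates 4, 5 and 6. Vehicle 5 lay within the range of the PCN libraries, and the other two vehicle libraries lay below it. The log2 fold change was 0.47 ± 0.23 (SE, edgeR, adjusted p = 0.528), 0.78 without vehicle 5 (adjusted p = 0.285) and 0.29 without PCN 4 (adjusted p = 0.829). Hmgcs1 had 104, 137 and 96.2 CPM with vehicle and 195, 122 and 104 CPM with PCN. PCN 4 alone lay above all vehicle libraries, and the log2 fold change was 0.32 ± 0.24 (SE, edgeR, adjusted p = 0.664), and 0.0039 without PCN 4. Idi1, the isomerase of isopentenyl diphosphate, and Dhcr7, the last reductase of one branch, had values of 0.24 and 0.21. The other 15 synthesis genes lay between -0.22 and 0.093. These were Acat2, Mvk, Pmvk and Mvd of the early mevalonate steps, Fdps and Ggps1 of isoprenoid synthesis, Fdft1 and Lss, and the later sterol enzymes Cyp51, Tm7sf2, Msmo1, Nsdhl, Hsd17b7, Ebp and Sc5d. The lowest was Tm7sf2, a sterol reductase.

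Of the control genes, Srebf1 was higher in every PCN library. It encodes SREBP1, and had 88.4, 105 and 87.9 CPM in vehicle replicates 3, 5 and 6 and 124, 110.1 and 119 CPM in PCN replicates 4, 5 and 6. The groups did not overlap, which was so for 8.69% of all genes in this direction. The log2 fold change was 0.33 ± 0.098 (SE, interval 0.10 to 0.55, edgeR, unadjusted p = 0.00959, adjusted p = 0.378). DESeq2 gave an adjusted p of 0.247. The fitted value stayed between 0.26 and 0.42 over the 13 settings tried. Srebf2 had 188, 248 and 195 CPM with vehicle and 283, 248 and 220.0 CPM with PCN, with vehicle 5 again among the PCN libraries (log2 fold change 0.25 ± 0.14, SE, edgeR, adjusted p = 0.567). It was 0.38 without vehicle 5 and 0.15 without PCN 4. The log2 ratio of Srebf1 to Srebf2 counts within a library was -1.16 ± 0.0798 with vehicle and -1.08 ± 0.173 with PCN. Their difference of 0.080 was smaller than the spread with PCN (2-sided exact permutation test, p = 0.7, adjusted p = 1 over 4 such ratios; 0.1 is the smallest p that 3 libraries against 3 allow).

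Insig1 varied between libraries and Insig2 hardly did, with an SD within groups of 0.48 and 0.070 on the log2 scale. Insig1, itself a target of SREBP, had 56.1, 134 and 68.4 CPM with vehicle and 86.0, 76.1 and 71.8 CPM with PCN. Vehicle 5 was the highest of all 6 libraries, and the other vehicle libraries were the lowest. Its log2 fold change was -0.15 ± 0.29 (SE, edgeR, adjusted p = 0.887) and 0.32 without vehicle 5. Insig2 had 64.2, 65.7 and 63.2 CPM with vehicle and 55.3, 62.6 and 61.1 CPM with PCN. Every PCN library was below every vehicle library (7.39% of all genes in this direction), by a log2 fold change of -0.11 ± 0.084 (SE, edgeR, adjusted p = 0.679). The log2 ratio of Insig1 to Insig2 counts was 0.32 ± 0.64 with vehicle and 0.38 ± 0.22 with PCN (2-sided exact permutation test, p = 0.8, adjusted p = 1). Scap, the escort of SREBP, had 103 to 119 CPM with vehicle and 95.1 to 106 CPM with PCN.

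The genes of uptake and transport all had fitted log2 fold changes below zero, from -0.75 to -0.047, and none passed. Npc1l1 was counted 47, 57 and 74 times in vehicle replicates 3, 5 and 6 and 46, 34 and 27 times in PCN replicates 4, 5 and 6, or 2.14, 2.35 and 2.90 CPM against 1.85, 1.40 and 1.14 CPM. The groups did not overlap. The log2 fold change was -0.75 ± 0.31 (SE, interval -1.46 to -0.036, edgeR, unadjusted p = 0.0417, adjusted p = 0.480), and DESeq2 gave an adjusted p of 0.407. With 1 library left out, the unadjusted p stayed under 0.05 only without PCN 4, and the value ranged from -0.95 to -0.61. Markers of small intestine enterocytes had a median log2 fold change of -0.62 over the 8 tested, of which 7 were below zero. Of these 8, 3 were down by unadjusted p under 0.05 and 3 did not overlap between groups. Over all 16586 genes tested, 8029 were below zero, 3.73% were down at that level and 7.39% did not overlap in this direction. Of the 8, edgeR called 1 lower (Enpep) and DESeq2 called 2, against 0.00603% and 0.307% of all genes. The summed level of the 8 tested markers, of 10 listed, was 465, 268 and 466 CPM in vehicle replicates 3, 5 and 6. It was 372, 339 and 267 CPM in PCN replicates 4, 5 and 6. The part of these cells in the value for Npc1l1 was not tested. Npc2 had 177, 161 and 152 CPM with vehicle and 146, 149.9 and 148 CPM with PCN, again without overlap (log2 fold change -0.14 ± 0.085, SE, edgeR, adjusted p = 0.589). Npc1, which passes cholesterol on from Npc2 at the lysosomal membrane, had 52.9 to 79.9 CPM with vehicle and 52.8 to 68.0 CPM with PCN. Their log2 ratio was -1.39 ± 0.37 and -1.36 ± 0.21 (2-sided exact permutation test, p = 1, adjusted p = 1). Stard4 was at 153 to 207 CPM and 142 to 193 CPM. Mylip, a ubiquitin ligase that lowers lipoprotein receptors and is induced by the sterol sensor LXR, was at 29.4 to 41.9 CPM and 31.7 to 35.9 CPM. It was lowest in vehicle 5, the vehicle library in which most synthesis enzymes were highest. PCN 4 led the PCN libraries for most synthesis enzymes. Mylip had 35.7 CPM there, against 35.9 and 31.7 CPM in PCN 5 and PCN 6.

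Soat1, which esterifies cholesterol in many tissues, had 65.6, 57.6 and 59.1 CPM in vehicle replicates 3, 5 and 6 and 90.5, 84.7 and 63.2 CPM in PCN replicates 4, 5 and 6. PCN 4 and PCN 5 were above all vehicle libraries, and PCN 6 lay within their range. The log2 fold change was 0.39 ± 0.14 (SE, interval 0.071 to 0.70, edgeR, unadjusted p = 0.0221, adjusted p = 0.434). With 1 library left out, the unadjusted p stayed under 0.05 only without vehicle 3 or PCN 6, and the value ranged from 0.28 to 0.51. Soat2 had 4.18, 7.75 and 5.37 CPM with vehicle and 3.37, 4.83 and 7.92 CPM with PCN. PCN 4 lay below all vehicle libraries, PCN 6 above them and PCN 5 within their range. The log2 ratio of Soat1 to Soat2 counts was 3.44 ± 0.54 and 3.95 ± 0.89 (2-sided exact permutation test, p = 0.4, adjusted p = 1).

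Among 27 other genes of sterol transport, efflux and LXR signalling, edgeR called none (6 up and 1 down by unadjusted p under 0.05, against 6.25% and 3.73% of all genes, with a median log2 fold change of -0.047) and DESeq2 called 2 higher, where it called 1.22% of all genes higher and 0.307% lower. These were Abcg5 and Abcg8, which together form the transporter that pumps sterols out of enterocytes into the gut lumen. Abcg5 had 2.59, 4.08 and 2.31 CPM in vehicle replicates 3, 5 and 6 and 10.5, 9.82 and 5.29 CPM in PCN replicates 4, 5 and 6. Abcg8 had 3.05, 2.93 and 2.82 CPM with vehicle and 7.23, 5.82 and 4.70 CPM with PCN. Both were higher in every PCN library, and PCN 6 was the lowest of these. In edgeR the estimates were 1.51 ± 0.34 for Abcg5 (adjusted p = 0.248) and 1.01 ± 0.24 for Abcg8 (adjusted p = 0.283), as log2 fold changes ± SE. DESeq2 gave adjusted p = 0.00371 and 0.0226. Abcg5 and Abcg8 lie head to head in the genome and share a promoter region. Npc1l1, which moves sterol the opposite way across the same membrane, was lower in every PCN library, as given above.

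**Figure D5:**
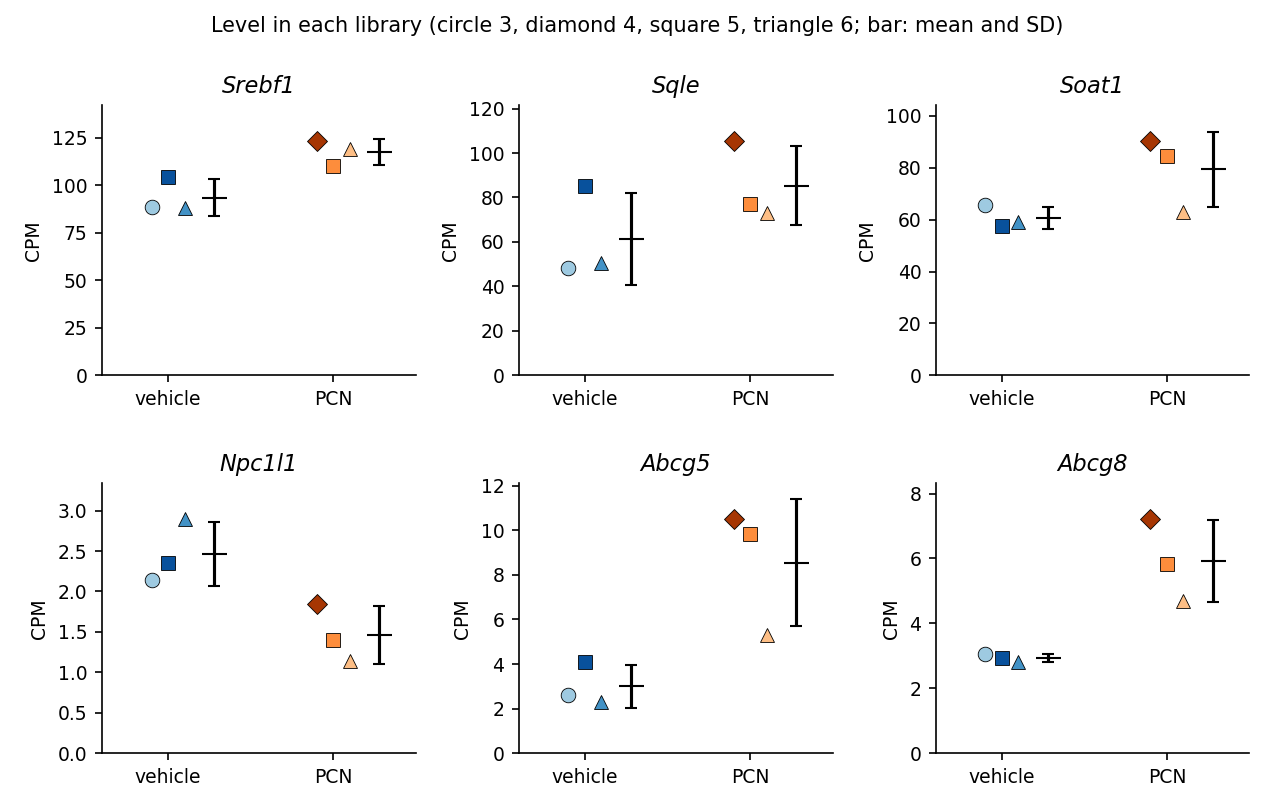
CPM in each library of Srebf1, Sqle, Soat1, Npc1l1, Abcg5 and Abcg8 for vehicle (blue) and PCN (orange and brown); symbol shape gives the replicate number and bars the mean and SD of 3 libraries, on axes that start at 0. The groups do not overlap for Srebf1, Npc1l1, Abcg5 and Abcg8, and overlap for Sqle and Soat1.

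Of 14 genes that process or degrade SREBP pathway proteins, none passed edgeR or DESeq2 (1 up and 0 down by unadjusted p under 0.05, against 6.25% and 3.73% of all genes, median log2 fold change -0.073). Of 17 genes of the isoprenoid branches to prenylated proteins, ubiquinone and dolichol, none passed (1 up and 1 down on the same count, median 0.059). Of 5 genes of acetyl-CoA supply, none passed (1 up and 0 down, median -0.10). Of the fatty acid genes that SREBP1 is known to act on, 16 of 17 had fitted values above zero, with a median log2 fold change of 0.27 and 6 up by unadjusted p under 0.05. Over all genes, 8557 of 16586 were above zero and 6.25% were up at that level. Of the 17, Elovl6, an elongase of fatty acids, alone passed. It had 101, 99.8 and 98.4 CPM in vehicle replicates 3, 5 and 6 and 182, 171 and 159 CPM in PCN replicates 4, 5 and 6 (log2 fold change 0.77 ± 0.083, SE, edgeR, adjusted p = 0.0456). Medians per library were taken on the log2 scale, centred on each gene's mean. In vehicle 5 the median of these fatty acid genes was the lowest of the 6 libraries (-0.33). That of the synthesis genes was among the highest there (0.34, against 0.35 in PCN 4 and -0.21 to -0.11 in the other 4). In PCN 4 the median of the fatty acid genes was the highest of the 6 libraries (0.31), as was that of the synthesis genes.

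Several other markers also set the libraries apart. Immune markers summed to 299.7 CPM in vehicle 5, against 703 and 483 CPM in the other vehicle libraries and 860 to 1416 CPM with PCN. Smooth muscle markers summed to 4591 CPM in PCN 4, against 1341 to 2980 CPM in the other 5 libraries, with 1483 CPM in vehicle 5. Stem and proliferating cell markers summed to 180.5 to 256 CPM with vehicle and 227 to 393 CPM with PCN. The 2 libraries with the highest synthesis enzymes were the highest and the next to lowest for smooth muscle. Fibroblast markers summed to 944 CPM in vehicle 5, the lowest of the libraries, and 1701 CPM in PCN 4, the highest. Colon epithelium markers summed to 24031 CPM in vehicle 5 and 36648 CPM in PCN 4, and adipocyte markers to 22.5 and 45.8 CPM. The part of cell composition in the library pattern was not tested.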

How the data were processed

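The authors deposited 1 table with read counts per gene and FPKM for 6 colon libraries. The study's methods name poly-A libraries, STAR and HTSeq and a pig assembly, while the labels name a SMARTER kit and mm10 and the gene identifiers are those of mouse. FPKM of the authors served to compare levels between genes only. Whether counting used strand is not given in the sources used here, so reads of overlapping antisense genes cannot be told apart. The log2 fold changes and p-values deposited by the authors were not used.

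Counts were fitted in edgeR 4.0.16 (R 4.3.3) with filterByExpr (minimum count 10, minimum total 15), TMM scaling, glmQLFit and glmQLFTest, with Benjamini-Hochberg adjustment over 16586 genes and a threshold of 0.05. Intervals are 95% intervals. DESeq2 1.42.0, limma 3.58.1 (voom), RLE scaling, no filter, adjusted deviances, a replicate block and each library left out were alternatives. Ratios of 2 genes used counts plus 0.5. The genes and lists were chosen with earlier results of these data known. All 31 genes are named, and of the lists of related pathways only those that passed edgeR or DESeq2. B3galt5, Akr1b7 and Cyp2c55 stand for the response to PCN. Of the cell type markers, Muc2, Alb, Cps1, Ahsg, Serpina1a and Enpep were named after their values were seen. The pipeline was tested on simulated data. Coordinates and overlaps of genes were taken from GENCODE M21 and promoters from RefSeq, both on GRCm38, which is mm10. In that annotation, 11 of the 31 genes share exonic bases with another gene, among them Fdps (1124 of 4208 bases, with Gm43738), Scap (985 of 7443) and Fdft1 (774 of 4227, with Ctsb). Sterol genes beyond these lists are not reported here.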

Additional observations from a re-analysis of the deposited data

How the results depend on the processing

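DESeq2, RLE scaling, limma voom, no filter on low counts and adjusted deviances kept the sign of all 31 genes, and none of the 31 passed after adjustment in any of the 13 settings, these and those below included. Replicate numbers 5 and 6 occur in both groups, but the labels do not say that they pair animals. Number 3 occurs only with vehicle and number 4 only with PCN. A replicate block therefore takes the difference between groups from numbers 5 and 6 alone. The deviations of same-numbered libraries correlated at -0.15 (number 5) and -0.089 (number 6). With the replicate number as a block, 0 of the 31 genes had an unadjusted p under 0.05 (7.16% of all genes), 20 of 31 kept their sign and the median of the synthesis genes was -0.17. The log2 fold change under the block turned negative for Hmgcs1 (-0.032), Mvk (-0.17), Mvd (-0.12), Idi1 (-0.14), Fdps (-0.20), Lss (-0.26), Cyp51 (-0.19), Msmo1 (-0.37), Nsdhl (-0.15), Hsd17b7 (-0.18) and Dhcr7 (-0.071), and was 0.19 for Sqle and 0.084 for Srebf2. Over all genes, edgeR called 64 higher and 10 lower under the block, against 5 and 1 without it, and DESeq2 called 171 and 43. With no filter edgeR called 25 and 2. Over the pairs with numbers 5 and 6 alone, the difference was -0.32 for the ratio of Insig1 to Insig2 and -0.10 for that of Npc1 to Npc2. By design, neither vehicle 3 nor PCN 4 entered the difference under the block, while vehicle 5 did.

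Leaving out each library in turn gave 1 to 8 of the 31 genes at an unadjusted p under 0.05 (6.45% to 12% of all genes) and 4 to 15 without overlap (22.6% to 30.3% of all genes), a median of -0.14 to 0.21 over the 31 genes and of -0.15 to 0.31 over the synthesis genes. The difference in log2 ratio ranged from -0.19 to 0.42 for Insig1 to Insig2, -0.020 to 0.14 for Srebf1 to Srebf2, 0.12 to 1.00 for Soat1 to Soat2 and -0.15 to 0.22 for Npc1 to Npc2. The log2 fold change changed sign over these fits for Acat2 (-0.18 to 0.11), Mvk (-0.16 to 0.19), Mvd (-0.081 to 0.26), Idi1 (-0.029 to 0.54), Fdps (-0.18 to 0.42), Fdft1 (-0.25 to 0.34), Lss (-0.17 to 0.50), Cyp51 (-0.20 to 0.44), Msmo1 (-0.28 to 0.53), Nsdhl (-0.15 to 0.21), Hsd17b7 (-0.12 to 0.46), Ebp (-0.16 to 0.012), Sc5d (-0.11 to 0.0024), Dhcr7 (-0.036 to 0.36), Insig1 (-0.38 to 0.32), Npc1 (-0.28 to 0.076), Stard4 (-0.14 to 0.079) and Soat2 (-0.51 to 0.17). It kept its sign for Hmgcs1 (0.0039 to 0.49), Sqle (0.29 to 0.78), Srebf1 (0.28 to 0.42), Srebf2 (0.15 to 0.38), Soat1 (0.28 to 0.51), Ggps1 (-0.16 to -0.055), Insig2 (-0.15 to -0.058), Mylip (-0.27 to -0.029), Npc1l1 (-0.95 to -0.61), Npc2 (-0.19 to -0.083), Pmvk (-0.26 to -0.0071), Scap (-0.20 to -0.087) and Tm7sf2 (-0.49 to -0.022). Depth limited Npc1l1 most, with 27 to 74 counts per library.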
